A study of Mus musculus with 4 samples.

Results

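Phospholipase A2 enzymes release a fatty acid, often arachidonic acid, from the middle position of a phospholipid and leave a lysophospholipid behind. The genes described here are 10 members of this family with a known place in skin, chosen by gene symbol: the secreted enzymes Pla2g2d, Pla2g2e, Pla2g2f and Pla2g12a, the cytosolic enzymes Pla2g4a, Pla2g4b, Pla2g4d, Pla2g4e and Pla2g4f, and Pla2g7, the plasma platelet-activating factor acetylhydrolase. Of the 10, 9 had a transcript cluster of their own (a set of probes summarised as one gene value), among 19938 genes that had one. The only cluster annotated to Pla2g4b carries 3 gene symbols, Jmjd7 and Gm28042 among them, so no value is given for Pla2g4b. Cytosolic group IV enzymes act on membranes inside the cell, and secreted enzymes act outside it. In skin these enzymes are known for supplying lipid mediators of inflammation and for handling epidermal lipids, and group IIF enzyme is known as the main secreted form of the suprabasal epidermis.

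Total RNA of C57BL/6 mouse skin was hybridised to 4 Affymetrix gene arrays. The arrays labelled K5-Cre, replicates 2 and 6, came from CflarF/F;K5-Cre;Tnfrsf1a+/- skin. The arrays with no K5-Cre were replicate 1, from CflarF/+;Tnfrsf1a+/- skin, and replicate 3, from CflarF/F;Tnfrsf1a+/- skin. All 4 samples thus carried a single working copy of Tnfrsf1a, which encodes TNF receptor 1, and at least 1 floxed allele of Cflar, which encodes the cell death inhibitor cFLIP. The keratin 5 promoter drives Cre in basal keratinocytes and their progeny, so other skin cells keep the floxed gene. The labels give no age, sex, body site or batch and do not say whether each array held a separate animal. The p-values therefore measure the spread between these samples only, which may be technical, and the number of arrays limits the precision.

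The basal keratin gene Krt5 was among the brightest on every array, with log2 signals of 13.20 and 13.01 on the arrays labelled K5-Cre and 12.80 and 12.81 on those with no K5-Cre. Cflar itself was not lower under K5-Cre: its signals were 9.69 and 9.71 on the arrays labelled K5-Cre, against 8.97 and 8.77 with no K5-Cre (adjusted p = 0.0029, and 0.0545 without no K5-Cre replicate 3). The groups are therefore called by their labels throughout. Differences were wide across the whole array: of 11255 genes tested, 64% passed an adjusted p of 0.05 in limma, with 25.2% of tested genes higher and 38.8% lower in skin labelled K5-Cre. The median difference over tested genes was -0.14 on the log2 scale as deposited and -0.04 after quantile normalization.

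Against that background, the phospholipase A2 genes were mostly higher in skin labelled K5-Cre. In the fit of all 19938 genes with a cluster, 8 of the 9 rose, 0 fell and Pla2g12a did not pass the test, against 30.8% of all genes called higher and 27.9% called lower. With a filter that kept genes whose mean over the 4 arrays exceeded 7.61, 8 of the 9 were tested and 7 rose, against 25.2% of tested genes higher and 64% called in either direction. That second count is a description only, since 4 of the 8, Pla2g4d, Pla2g4e, Pla2g2e and Pla2g12a, had a mean with no K5-Cre under the filter and passed it through their K5-Cre arrays. All 9 genes with a cluster had both K5-Cre values above both values with no K5-Cre, a pattern that 47.6% of all genes with a cluster shared. A rise of at least 2-fold was seen in 6 of the 9, against 7.28% of all genes with a cluster. A difference of at least 8-fold was seen in 3, Pla2g4d, Pla2g4e and Pla2g7, against 0.933% of all genes with a cluster. The median difference over the 9 genes was 1.41. All these counts are descriptions, since the genes were chosen with earlier results of these data known. Markers of other skin cell types moved widely on the same arrays, and their part in these differences was not tested. The marker counts here are from the fit without filter. Skeletal muscle markers fell in 8 of 8 (median difference -5.02), fibroblast markers in 7 of 7 (-2.93) and endothelial markers in 4 of 5 (-3.33). Mast cell markers fell in 6 of 7 (-2.09) and adipocyte markers in 6 of 7 (-1.93). Neutrophil markers rose in 11 of 12, with 1 not past the threshold and a median of 4.70. The plot of signal by array shows each gene on an axis of the same span.

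**Figure D1:**
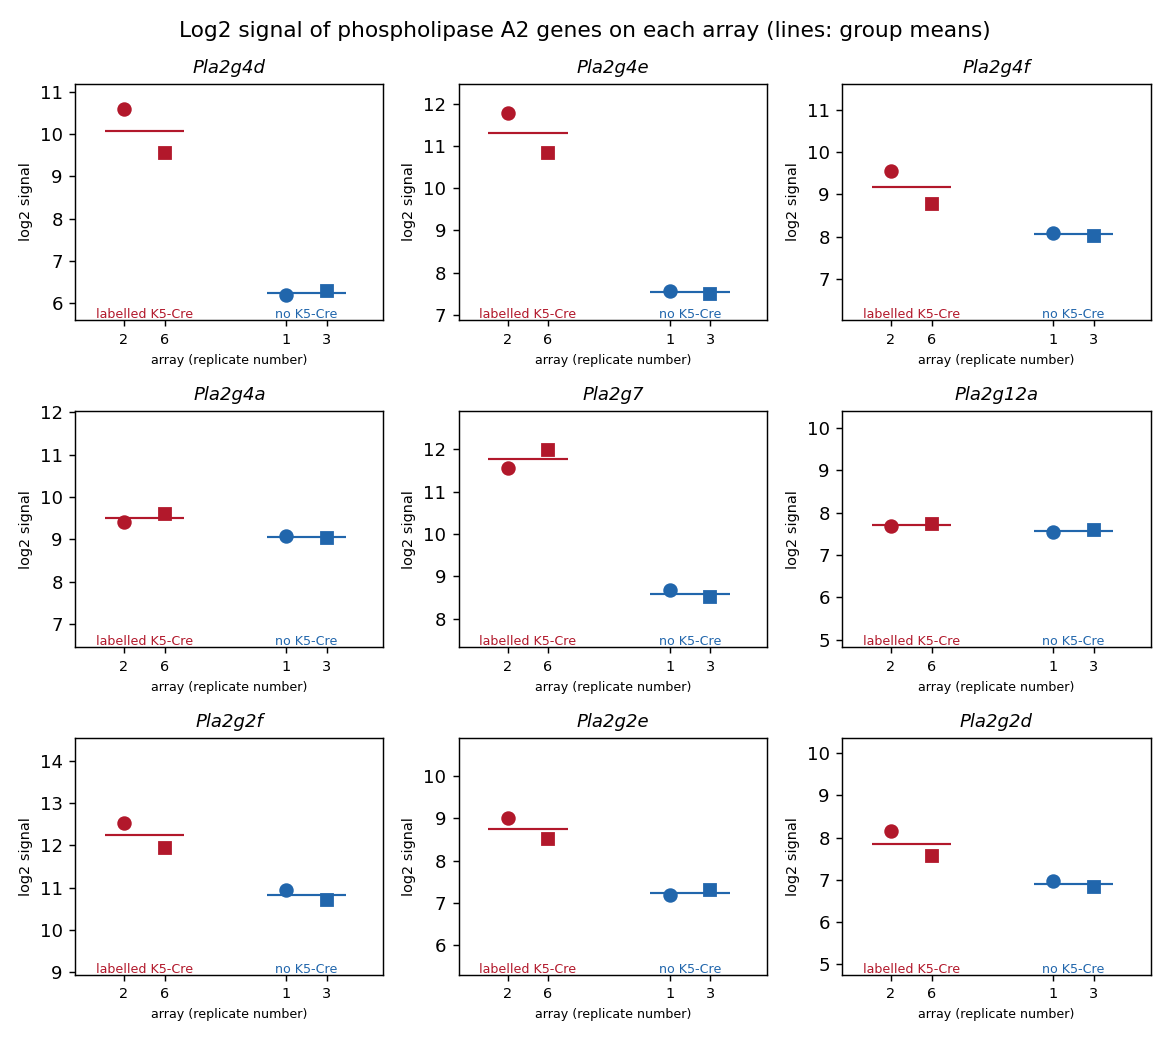
Log2 signal (vertical axis, same span in each panel) of the 9 genes on each array (horizontal axis), with red points for the arrays labelled K5-Cre, blue points for those with no K5-Cre, and lines at the group means. In every panel both red points lie above both blue points, by most in Pla2g4d and Pla2g4e and by least in Pla2g12a.

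Pla2g4d and Pla2g4e, both cytosolic group IV enzymes, had fitted differences above those of the other 7 genes. Pla2g4d, whose product cPLA2-delta is known from psoriatic human epidermis, had log2 signals of 10.59 and 9.56 on the K5-Cre arrays, against 6.20 and 6.28 with no K5-Cre. With no K5-Cre these values lay low among all clusters of their arrays, at percentiles 24.5 and 25.3, and whether they were above background was not tested, so the fold is the ratio of fitted signals only. Both K5-Cre values stood far above them, at percentiles 92.5 and 83.6. Pla2g4d rose by 3.84 ± 0.34 on the log2 scale (SE), or 14.3-fold with a moderated 95% interval of 7.85 to 26.0 (adjusted p = 0.0007). Pla2g4e, whose product cPLA2-epsilon is known as an N-acyltransferase that makes precursors of anandamide, had signals of 11.79 and 10.83 on the K5-Cre arrays, against 7.56 and 7.51 with no K5-Cre. The groups did not overlap, and the rise of 3.78 ± 0.32 corresponded to 13.7-fold (7.81 to 24.2, adjusted p = 0.000617). In both genes the spread lay in the K5-Cre arrays, with an SD of 0.73 for Pla2g4d and 0.67 for Pla2g4e, against 0.05 and 0.04 with no K5-Cre.

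Pla2g4f and Pla2g4a moved less. Pla2g4f, next to Pla2g4d on chromosome 2 and the cytosolic enzyme cPLA2-zeta, had signals of 9.56 and 8.78 on the K5-Cre arrays, against 8.09 and 8.02 with no K5-Cre. It rose 2.16-fold (1.35 to 3.47), a log2 difference of 1.11 ± 0.27 (adjusted p = 0.0169). Pla2g4a encodes cPLA2-alpha, the calcium-activated enzyme best known for releasing arachidonic acid for eicosanoids. Its signals were 9.40 and 9.60 on the K5-Cre arrays, against 9.08 and 9.02 with no K5-Cre. It rose 1.36-fold (1.11 to 1.68), a log2 difference of 0.45 ± 0.12 (adjusted p = 0.0233). Neither call held with 1 control array: without no K5-Cre replicate 1 or 3 the adjusted p was 0.057 or 0.0655 for Pla2g4f, and 0.172 or 0.217 for Pla2g4a. In bulk skin, more cells of a type and more RNA per cell cannot be told apart for any of these genes.

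Promoter windows from RefSeq on build GRCm38.p6 were found for 9 of the 10 genes, all but Pla2g4b, each running from 250 bases before the annotated start to 50 after it. The 3 neighbouring cytosolic genes, Pla2g7 and Pla2g2e are printed, since the first 3 show large and small rises side by side, Pla2g7 rose by a like amount from another chromosome, and Pla2g2e holds a repeated motif. Capitals mark matches on either strand to AP-1 (TGANTCA), C/EBP (TTGCNNAA), STAT (TTCNNNGAA), NF-kappaB (GGGA and TTCC with any 2 bases between), GRHL (AACNNGTT), the TATA box (TATAAA) and the CCAAT box (CCAAT). The windows are Pla2g4d at chr2:120289020-120289319, Pla2g4e at chr2:120245286-120245585 and Pla2g4f at chr2:120314116-120314415, all on the minus strand, with Pla2g7 at chr17:43568201-43568500 and Pla2g2e at chr4:138877692-138877991 on the plus strand.
Pla2g4d: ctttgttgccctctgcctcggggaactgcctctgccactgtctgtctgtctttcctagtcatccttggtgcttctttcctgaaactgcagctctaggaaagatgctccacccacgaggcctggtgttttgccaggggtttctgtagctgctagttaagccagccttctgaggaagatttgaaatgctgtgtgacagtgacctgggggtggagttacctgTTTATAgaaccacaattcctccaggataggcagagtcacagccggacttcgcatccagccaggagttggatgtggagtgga
Pla2g4e: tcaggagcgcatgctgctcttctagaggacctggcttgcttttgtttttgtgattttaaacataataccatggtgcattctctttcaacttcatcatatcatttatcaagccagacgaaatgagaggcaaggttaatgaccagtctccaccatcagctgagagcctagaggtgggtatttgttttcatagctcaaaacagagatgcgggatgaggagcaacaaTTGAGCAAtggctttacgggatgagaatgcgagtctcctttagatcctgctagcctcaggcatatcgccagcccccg
Pla2g4f: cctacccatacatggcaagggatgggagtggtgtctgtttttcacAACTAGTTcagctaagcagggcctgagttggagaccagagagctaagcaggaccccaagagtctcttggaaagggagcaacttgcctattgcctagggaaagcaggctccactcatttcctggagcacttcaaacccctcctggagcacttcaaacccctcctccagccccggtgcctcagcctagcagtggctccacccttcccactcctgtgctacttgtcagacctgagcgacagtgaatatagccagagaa
Pla2g7: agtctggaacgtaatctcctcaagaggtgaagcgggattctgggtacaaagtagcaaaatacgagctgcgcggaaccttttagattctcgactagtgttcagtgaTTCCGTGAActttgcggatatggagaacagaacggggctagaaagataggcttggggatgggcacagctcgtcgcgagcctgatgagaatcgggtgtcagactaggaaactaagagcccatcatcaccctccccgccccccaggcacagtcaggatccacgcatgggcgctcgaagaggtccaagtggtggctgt
Pla2g2e: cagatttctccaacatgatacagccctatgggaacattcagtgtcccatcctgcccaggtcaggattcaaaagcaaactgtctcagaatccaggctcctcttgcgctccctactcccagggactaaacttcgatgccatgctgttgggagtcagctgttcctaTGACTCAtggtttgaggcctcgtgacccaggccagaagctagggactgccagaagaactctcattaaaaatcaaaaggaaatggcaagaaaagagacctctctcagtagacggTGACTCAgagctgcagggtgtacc

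The 3 chromosome 2 windows held different motifs. Pla2g4d had a TATA box match on the opposite strand that began 31 bases before the start, a motif present in 13.6% of all 32851 windows. Pla2g4e had a C/EBP match 27 bases before the start, and 10.8% of windows hold one. Pla2g12a, whose difference did not pass the test, also held a C/EBP match, 131 bases before the start. Pla2g4f had a GRHL match 205 bases before the start, and 4.2% of windows hold one. The Pla2g7 window held a STAT match 145 bases before the start, as 8.3% of windows do. Pla2g2e carried the AP-1 heptamer TGACTCA in 2 places, 87 bases before and 26 bases after the start, and 7.81% of windows hold an AP-1 match. No match to the NF-kappaB letters was found in any window of the 9 genes, and 1.47% of all windows hold one. These are matches of letters in a short window and say nothing on binding.

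The secreted enzymes had smaller differences than Pla2g4d and Pla2g4e, and this contrast between genes was not tested. Pla2g2f, the suprabasal epidermal enzyme, had log2 signals of 12.54 and 11.93 on the K5-Cre arrays, against 10.94 and 10.71 with no K5-Cre. It rose 2.66-fold (1.79 to 3.94), a log2 difference of 1.41 ± 0.22 (adjusted p = 0.00426). Pla2g2e, an enzyme known in mouse hair follicles, had signals of 9.01 and 8.51 on the K5-Cre arrays, against 7.20 and 7.30 with no K5-Cre. The groups stood apart, and the rise was 2.86-fold (2.06 to 3.95), or 1.51 ± 0.18 (adjusted p = 0.00186). Most markers of the hair follicle and sebaceous gland ran the other way on the same arrays. In the fit without filter 10 of 12 fell, while Awat2 (-0.008, adjusted p = 0.96) and Elovl3 (0.11, adjusted p = 0.473) did not pass. The summed linear signal of all 12 was 1814 and 1543 on the K5-Cre arrays, against 7470 and 7397 with no K5-Cre. The part of these cell types in the Pla2g2e result was not tested.

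Pla2g2d and Pla2g12a were near the middle of the signal range. Pla2g2d, an enzyme of dendritic cells and macrophages known for making anti-inflammatory lipids, had signals of 8.15 and 7.56 on the K5-Cre arrays, against 6.97 and 6.84 with no K5-Cre. Its mean of 7.38 lay under the level filter of 7.61, so it was tested only in the fit without filter. There it rose 1.93-fold (1.37 to 2.72), or 0.95 ± 0.20 (adjusted p = 0.0104, and 0.0641 without no K5-Cre replicate 3). The 8683 genes under the filter had a median difference of 0.27 in that fit. Pla2g12a, a secreted enzyme of a separate group, had signals of 7.68 and 7.74 on the K5-Cre arrays, against 7.55 and 7.59 with no K5-Cre. Its difference of 0.14 ± 0.08 corresponded to 1.10-fold with an interval of 0.949 to 1.28 and did not pass the test (adjusted p = 0.198).

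Pla2g7, which inactivates platelet-activating factor and oxidised phospholipids and is known from macrophages, had the smallest adjusted p of the 9 genes. Its log2 signals were 11.56 and 12.00 on the K5-Cre arrays, against 8.67 and 8.51 with no K5-Cre. Both K5-Cre values were far above both others, and the rise was 9.14-fold (6.68 to 12.5), or 3.19 ± 0.18 (adjusted p = 0.000195). Most macrophage and dendritic cell markers rose on the same arrays, with 15 of 17 called higher in the fit without filter and 2 not past the threshold. The summed linear signal of all 17 with a cluster was 24820 and 38550 on the K5-Cre arrays, against 6568 and 6999 with no K5-Cre, and no marker is listed at 0 on this scale. Their part in the Pla2g7 result was not tested.

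The authors' deposited table of clusters that passed their fold cut lists 3 of these genes, Pla2g7, Pla2g4e and Pla2g4d. It places Pla2g7 at chr17:43705400-43749150 on the plus strand, measured by 28 probes, on build mm9. It places Pla2g4e at chr2:119992148-120071071 with 41 probes and Pla2g4d at chr2:120091602-120114805 with 43 probes, both on the minus strand. Against no K5-Cre replicate 1, the authors' deposited table gives Pla2g4d as 16.5-fold higher on K5-Cre replicate 2 and 7.59-fold higher on replicate 6. For Pla2g7 the order of the K5-Cre arrays in the authors' deposited table was the opposite, 7.41-fold on replicate 2 and 10.3-fold on replicate 6.

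**Figure D2:**
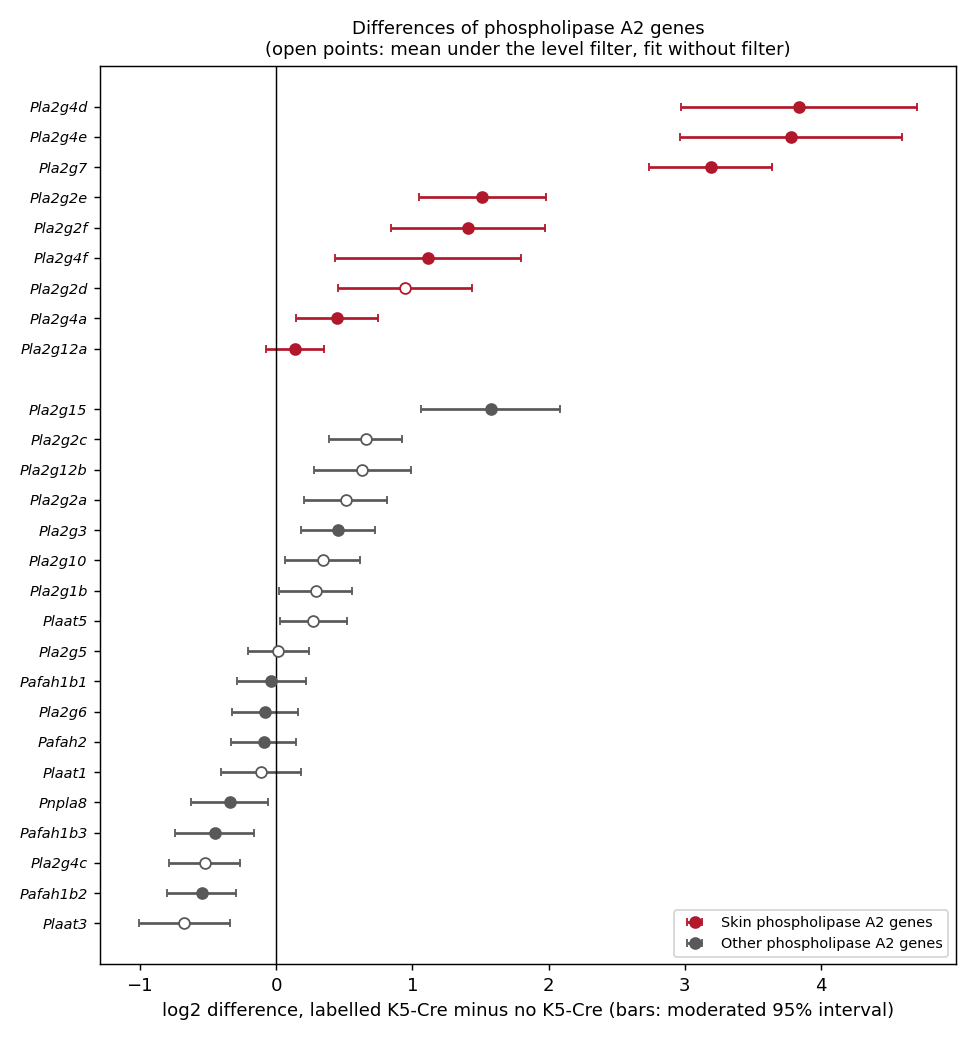
Log2 difference, labelled K5-Cre minus no K5-Cre (horizontal axis), for the 9 genes (red) and for the other phospholipase A2 genes with a cluster (grey), with moderated 95% intervals and open points for genes under the level filter. Pla2g4d, Pla2g4e and Pla2g7 lie between 3.19 and 3.84, and among the grey genes Pla2g15 lies highest at 1.57.

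The 2 K5-Cre arrays differed from each other in a gene-by-gene pattern. Pla2g4d was 1.03 higher on the log2 scale in replicate 2 than in replicate 6, Pla2g4e 0.95, Pla2g4f 0.78, Pla2g2f 0.60, Pla2g2d 0.58 and Pla2g2e 0.50. Pla2g7 ran the other way at -0.44, Pla2g4a at -0.20 and Pla2g12a at -0.07. Thus 6 of 9 genes were higher in replicate 2, against 48.1% of all genes with a cluster, and the 5th and 95th percentiles of this difference over tested genes were -0.56 and 0.54. Suprabasal keratinocyte markers were higher in replicate 2 for 10 of 11 genes, with a median of 0.33 and summed signals of 87390 and 70560 in replicates 2 and 6, against 44640 and 42560 with no K5-Cre. Between the groups, 7 of the 11 markers rose and 1 fell, and the other 3 missed the threshold. Krt1 was at 0.04, Krt10 at 0.01 and Lor at -0.10, and Flg2 fell by 1.24 on the log2 scale (adjusted p = 0.021). Macrophage and dendritic cell markers were lower in replicate 2 for 11 of 17, with a median of -0.48. The lean to replicate 2 was not particular to suprabasal markers. Basal keratinocyte markers were higher there in 7 of 7, hair follicle and sebaceous markers in 11 of 12, adipocyte markers in 6 of 7 and endothelial markers in 4 of 5. Mast cell markers were lower in replicate 2 in 7 of 7 and skeletal muscle markers in 7 of 8. These are single arrays, so no test applies, and the part of these cell types in the differences was not tested. Taken from 1 K5-Cre array at a time, the rise of Pla2g4d was 4.35 with replicate 2 and 3.32 with replicate 6. No call is read from those fits, since their spread comes from the no K5-Cre arrays only.

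**Figure D3:**
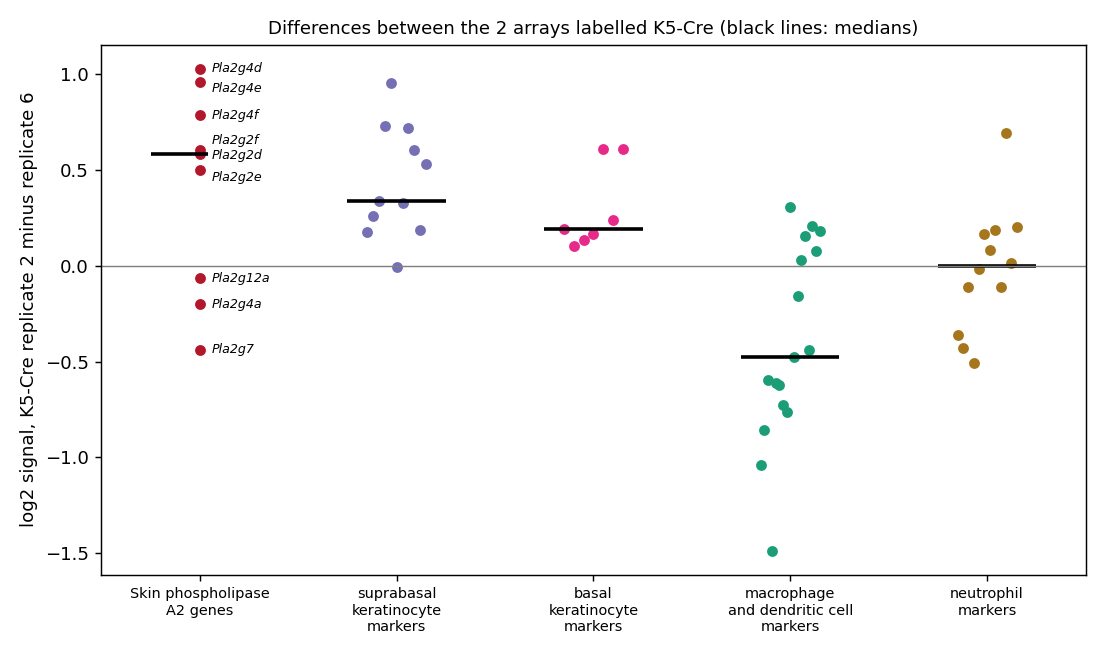
Log2 signal of K5-Cre replicate 2 minus replicate 6 (vertical axis) for the 9 phospholipase A2 genes and for marker genes of 4 cell types, 1 point per gene, with black lines at the medians. Pla2g4d, Pla2g4e and Pla2g4f lie on the positive side with most keratinocyte markers. Pla2g7 lies at -0.44, and the median of the macrophage and dendritic cell markers is -0.48. Pla2g2d, an enzyme of dendritic cells and macrophages, lies on the opposite side at 0.58. The part of these cell types was not tested.

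Pla2g4e, Pla2g4d and Pla2g4f stand next to each other on chromosome 2 in the RefSeq gene order, with Ehd4 on one side and Vps39 on the other. The 4 protein-coding genes on each side of each gene row, and other genes within it, were looked up after the members' values were known. The chromosome 2 row ran from Pla2g4b to Pla2g4f, with Sptbn5 and Ehd4 inside it and counted as neighbours. The chromosome 4 row ran from Pla2g2c to Pla2g2e. Ehd4, an endocytic trafficking gene, rose by 1.10 ± 0.16 (adjusted p = 0.00338). Vps39, a lysosomal tethering gene, had a difference of -0.29 ± 0.14 (adjusted p = 0.118). Its difference was -0.45 with K5-Cre replicate 2 alone and -0.14 with replicate 6 alone. Of the 6 tested neighbours on chromosome 2, 2 rose, 3 fell and 1 did not pass, with differences between -0.76 and 1.10. After quantile normalization, Tmem87a (adjusted p = 0.127) and Mapkbp1 (adjusted p = 0.161) were not called lower, and without no K5-Cre replicate 1 or 3 none of the 3 falls was called, with an adjusted p of 0.0822 or 0.0619 for Mga. On the same scale Pla2g4e and Pla2g4d were at 3.78 and 3.84. Pla2g2f, Pla2g2d and Pla2g2e lie in the row of secreted enzyme genes on chromosome 4. Within that row Pla2g5, between Pla2g2d and Pla2g2e, had a difference of 0.02 ± 0.09 in the fit without filter (adjusted p = 0.875). Pla2g2c, in the same row and also not among the chosen genes, rose by 0.66 ± 0.11 in that fit (adjusted p = 0.00438). Of the 4 tested chromosome 4 neighbours, 2 rose and 2 did not pass, with differences of 0.17 to 0.49, against 1.41 for Pla2g2f and 1.51 for Pla2g2e. Differences between neighbours were not tested.

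**Figure D4:**
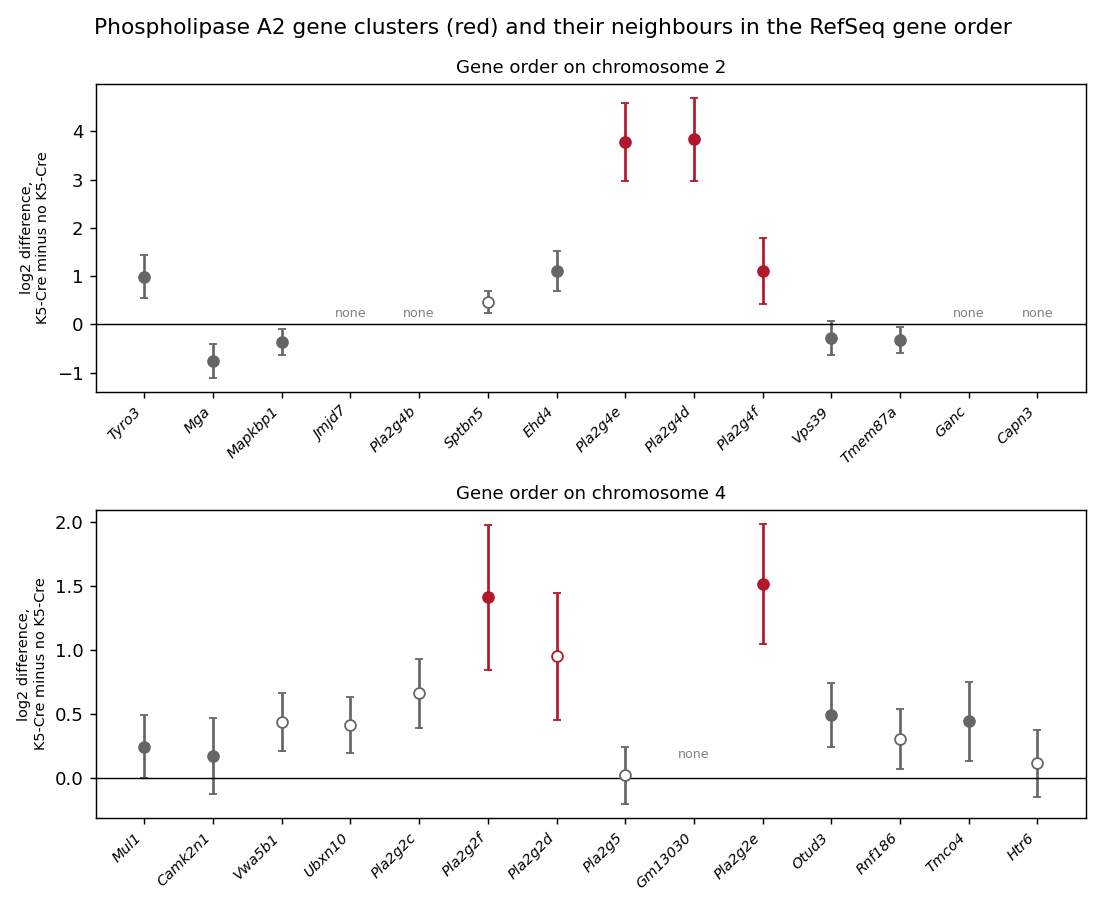
Log2 difference, labelled K5-Cre minus no K5-Cre (vertical axis), with moderated 95% intervals for genes in RefSeq order on chromosomes 2 and 4 (horizontal axis), the skin phospholipase A2 genes in red, other genes in grey, open points for genes under the level filter and "none" for a gene with no cluster of its own. Pla2g4e and Pla2g4d stand above all their neighbours, and Pla2g5 lies near 0 between Pla2g2d and Pla2g2e. Pla2g2c, in the same row as Pla2g5, lies at 0.66.

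Other genes of the phospholipase A2 superfamily moved in both directions. Of 19 listed, 18 had a cluster, and in the fit without filter 6 rose, 5 fell and 7 did not pass. Of the 8 above the filter, 2 rose, 3 fell and 3 did not pass, and of the 10 under it, 4 rose, 2 fell and 4 did not pass. The median difference over the 18 was -0.008, against 1.41 for the 9 genes above. Both lists were drawn up with earlier results of these data known, so this contrast is a description and was not tested. Pla2g15, the lysosomal phospholipase A2, had signals of 9.46 and 10.01 on the K5-Cre arrays, against 8.19 and 8.14 with no K5-Cre, and rose 2.98-fold (1.57 ± 0.20, adjusted p = 0.00218). Pla2g3, a secreted enzyme, rose 1.37-fold (adjusted p = 0.0153). Pafah1b2 and Pafah1b3, catalytic subunits of the intracellular acetylhydrolase for platelet-activating factor, fell by 0.55 (adjusted p = 0.00672) and 0.45 (adjusted p = 0.0203) on the log2 scale, the opposite direction to Pla2g7. Pnpla8, a calcium-independent mitochondrial enzyme, fell by 0.34 (adjusted p = 0.0435, and 0.229 after quantile normalization). Without no K5-Cre replicate 1 or 3, Pla2g15 was the 1 rise left among the 8 above the filter, and 0 of their falls were called. Pla2g2a, which carries a known disabling mutation in C57BL/6 mice, had dim signals of 6.15 and 6.39 on the K5-Cre arrays, against 5.68 and 5.83 with no K5-Cre. Pla2g2a rose by 0.51 in the fit without filter (adjusted p = 0.0166), and whether its values were above background was not tested.

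Genes around the phospholipase A2 step were counted from lists of the pathway. The counts of tested genes stand against 25.2% of all tested genes called higher and 38.8% called lower. These counts are descriptions only, since the level filter uses the mean over all arrays and some genes passed it through their brighter group. Among the prostanoid and leukotriene genes that rose, Ptgs2, Tbxas1, Alox5 and Alox8 had a mean with no K5-Cre under the level filter. The list of genes that bind or inhibit phospholipase A2 held 4 genes. Its 3 annexins, phospholipid-binding proteins of which Anxa1 is known to restrain phospholipase A2, all rose, with Anxa1 at 3.69-fold (adjusted p = 0.000235), Anxa3 at 2.70-fold and Anxa2 at 1.78-fold. Pla2r1, a receptor that binds secreted phospholipase A2, lay under the level filter and fell by 0.38 in the fit without filter (adjusted p = 0.0166). Of 11 tested genes of prostanoid synthesis and breakdown, 5 rose, 3 fell and 3 did not pass. The 5 rises included the breakdown gene Hpgd, at 3.32-fold (adjusted p = 0.00238). Ptgs2 rose most of the list, at 38.0-fold (adjusted p = 6.06e-05). Its log2 signals were 12.04 and 11.82 on the K5-Cre arrays, against 6.54 and 6.82 with no K5-Cre. Whether the values with no K5-Cre were above background was not tested. Ptges, a prostaglandin E synthase, rose 5.56-fold (adjusted p = 0.000515) and Tbxas1, thromboxane synthase, rose 5.15-fold (adjusted p = 0.00374), while Ptgis, prostacyclin synthase, fell by 0.71 on the log2 scale. Of 7 tested lipoxygenase and leukotriene genes, 6 rose and 1 fell. In the fit without filter, 7 of 11 rose, 3 fell and 1 did not pass, against 30.8% of all genes higher and 27.9% lower. The falls in that fit included Alox12e, 3.13-fold lower (adjusted p = 0.000163), and Ephx2, 2.39-fold lower (adjusted p = 0.000365). Ephx2 is an epoxide hydrolase gene kept on that list. Whether the K5-Cre values of Alox12e (6.43 and 6.25) and Ephx2 (6.36 and 6.43) were above background was not tested. Alox5ap, the 5-lipoxygenase activating protein, rose 13.6-fold (adjusted p = 0.000256) and Alox8 rose 8.87-fold (adjusted p = 0.00407), while Lta4h, which makes leukotriene B4, fell by 0.62.

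Of 6 tested receptors for eicosanoids and platelet-activating factor, 3 rose, 2 fell and 1 did not pass. All 3 rises, Ltb4r1, Ptafr and Cysltr1, had a mean with no K5-Cre under the level filter (7.54, 7.56 and 7.49). They passed the filter through their K5-Cre arrays, and Ptgfr, which fell, passed it through its arrays with no K5-Cre. The count of tested receptors is therefore a description only. In the fit without filter, 5 of 13 rose, 3 fell and 5 did not pass. Ptafr, the receptor for the lipid that Pla2g7 inactivates, rose 3.21-fold (adjusted p = 0.000448), and Ltb4r1, a leukotriene B4 receptor, rose 6.66-fold (adjusted p = 9.2e-05). Ptgfr, the prostaglandin F receptor, was 7.49-fold lower (adjusted p = 7.3e-05). Of 10 tested genes of lysophospholipid signalling and reacylation, 4 rose and 4 fell, and the receptor gene Lpar4 was 11.7-fold lower (adjusted p = 9.6e-05). Whether the K5-Cre values of Ptgfr (6.54 and 6.56) and Lpar4 (6.42 and 6.67) were above background was not tested. Of 19 tested other hydrolases of acylglycerols and lysophospholipids, 9 rose and 7 fell, led by Pnpla1, an enzyme of epidermal acylceramide synthesis, at 3.46-fold (adjusted p = 0.00579). Without no K5-Cre replicate 1, the lysophospholipid list had 0 rises and 3 falls and the hydrolase list had 5 rises and 2 falls. Without no K5-Cre replicate 3 those counts were 1 and 3, and 7 and 2. With either of these arrays left out, the prostanoid list had 1 fall, the leukotriene list 0 and the receptor list 1.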

How the data were processed

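Per the labels, biotin-labelled total RNA was hybridised to Affymetrix arrays. The authors deposited log2 values for 35557 transcript clusters per array. No further normalization was applied, and their own summarisation and normalization steps are not given in the sources used here. Another table they deposited gives, per the file headers, a linear intensity that the authors called raw, a log2 value relative to the no K5-Cre arrays, a fold ratio over no K5-Cre replicate 1 and a signed fold, treated as a score. Its 1396 clusters had, per the file headers, a fold change of at least 4 and a raw signal above the 20th percentile. The 2 tables differed by up to 2.47 log2 units, so the second served only to describe genes.

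Clusters with 1 gene symbol (21789) were kept, with the brightest on average for each gene. Genes with a mean above the median of all clusters were fitted with limma 3.58.1 in R 4.3.3 (variance trend, moderated statistics, Benjamini-Hochberg adjustment). The fit was tested on simulated data. A 2 against 2 exact permutation test cannot go below p = 0.333. All 10 members could be named; from each pathway list the rule named up to 3 rises and 3 falls, of which some are printed. Pla2r1, Lor, Flg2, Awat2, Elovl3, Alox12e, Ephx2, Hpgd and the chromosomal neighbours were named after their values were seen. Members and lists were chosen with earlier results of these data known. Alternatives were other filters, scalings and variance models and leaving out each array. The second table's signals, and no filter with quantile normalization, were added after seeing the data.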

Additional observations from a re-analysis of the deposited data

How the results depend on the processing

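Each of the 9 phospholipase A2 genes kept a positive difference under every alternative that tested it. Pla2g2e, Pla2g2d and Pla2g12a were not tested with the filter at the 60th percentile of cluster means, 8.11. Pla2g4d, Pla2g4e, Pla2g7, Pla2g2f and Pla2g2e also kept their calls in the alternatives with all 4 arrays that tested them. Leaving out 1 array at a time gave log2 differences of 0.35 to 0.55 for Pla2g4a, 0.72 to 1.51 for Pla2g4f and 0.66 to 1.24 for Pla2g2d, with calls lost as given above, and assumes that a lone sample varies like the others. Genes past the threshold numbered 7200, of which 2836 were higher and 4364 lower. They numbered 11712 without filter, 6145 of them higher. With 1 array left out they numbered 3831 to 9147, with 1463 to 3716 higher and 2368 to 5454 lower. The split of calls moved to 3352 higher and 3777 lower after quantile normalization. The sign turned for genes that passed no test: Pla2g6 was at 0.049, Pafah1b1 at 0.017 and Pafah2 at 0.056 after quantile normalization, and Pafah1b1 at 0.036 with arrays shifted to the same median. With 1 array left out, Krt1 ran from -0.047 to 0.13, Krt10 ran from -0.12 to 0.14 and Plaat1 ran from -0.23 to 0.011. The cause was not tested. Over 67 other genes, 68 of 641 values lost their call, 54 of them with 1 array left out. No paired analysis was possible because the groups share no replicate numbers.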
